A study of Mus musculus with 2 samples.

Results

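Interferon response genes are the 39 genes considered here, taken by symbol from the gene list of 2 mouse single-cell RNA libraries that names 26893 genes. All 39 had exactly 1 named row in both libraries. The samples were undifferentiated spermatogonia of adult C57BL/6 testes, cells among which the spermatogonial stem cells are found. They were selected for THY1 and grown without serum, with GDNF and bFGF, over a layer of SNL76/7 fibroblasts from mouse embryos that mitomycin had arrested. The Chd4 siRNA group received an siRNA against Chd4, whose product is the nucleosome remodelling ATPase of NuRD. The control siRNA group received a non-targeted siRNA. Both groups were lifted off the layer and transfected on plastic, over 24 h, with 75 pmol of siRNA in 2 µL of Lipofectamine. Cells of 3 biological replicates were mixed in equal numbers within each group, so a group is 1 library and its replicates cannot be separated. There was therefore no replicate check and no test. Intervals below are 95% intervals that cover counting error only, and log2 ratios are Chd4 siRNA over control siRNA.

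Interferons are secreted proteins that bind receptors coupled to JAK kinases. Type I interferon brings STAT2 and IRF9 into a complex that binds the interferon-stimulated response element, while interferon gamma acts at gamma-activated sites. The induced genes block viral entry, replication and release, sense foreign nucleic acid, and raise antigen presentation by major histocompatibility complex class I. Many cells also keep a low level of these genes without interferon, and cell types differ in which members they keep.

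Cells were split into a germ and a feeder class by whether UMIs (unique molecular identifiers, each a counted transcript) of Dazl and Ddx4 outnumbered those of Col1a1 and Fn1. The germ class held 760 of 858 cells (88.6%) under Chd4 siRNA and 728 of 816 (89.2%) under control siRNA, with 12251236 and 11605456 UMIs. The feeder class held 89 cells (10.4%) and 79 cells (9.68%), with 3607230 and 3174545 UMIs. Median depth was 15581.5 and 15282 UMIs per germ class cell and 40805 and 38655 UMIs per feeder class cell. The labels name spermatogonia, grown on fibroblasts; cells of the feeder class are called feeder by the rule and by the markers below. The other 12 measured germ cell markers summed to 1787 and 1684 CPM (UMIs per 1000000 UMIs of the class) in the germ class, against 67.4 and 86.3 CPM in the feeder class. The other 14 fibroblast markers summed to 92.6 and 86.7 CPM in the germ class and 5062 and 4284 CPM in the feeder class. Of 8 measured immune cell markers, Tyrobp and Adgre1 were at 0 in both classes of both libraries. The summed immune markers were 17.96 and 17.23 CPM in the germ class and 8.87 and 3.78 CPM in the feeder class. In a handful of cells the classes and markers disagreed: 2 of the 760 and 3 of the 728 germ class cells held more fibroblast than germ cell markers, and 1 of them weighs on several results below. Another 9 cells per library were tied and stayed unassigned. The siRNA target Chd4 stood at 252.9 CPM under Chd4 siRNA and 535.8 CPM under control siRNA in the germ class, a log2 ratio of −1.08 (−1.15 to −1.02). In the feeder class it stood at 52.9 and 154.7 CPM, a log2 ratio of −1.55 (−1.80 to −1.30). Of the barcodes held, 799 and 817, the libraries shared 1.

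The start-site sequences of the members hold the response element more often than those of all genes. RefSeq promoter windows of the GRCm38.p6 build, from 250 bases before to 50 bases after each start, were found for 31 of the 39 members. The core of the interferon-stimulated response element, searched as GAAA, any 2 bases and GAAA on both strands, occurred in 14 of these 31 members (45.2%), and in 3.99% of all 27025 genes with a window. The gamma-activated site, searched as TTCNNNGAA, occurred in 6 of 31 (19.4%), against 9.55% of all genes. No claim about binding follows from a match, and a window without one lacks only these letters. The 150 bases before the start are shown for 4 members on which the results turn, on the strand of the gene and 5′ to 3′, with the response element in capitals. They are Isg15 (chr4:156200819-156200968, minus strand), Rsad2 (chr12:26456453-26456602, minus strand), Bst2 (chr8:71537473-71537622, minus strand) and B2m (chr2:122147537-122147686, plus strand).
Isg15: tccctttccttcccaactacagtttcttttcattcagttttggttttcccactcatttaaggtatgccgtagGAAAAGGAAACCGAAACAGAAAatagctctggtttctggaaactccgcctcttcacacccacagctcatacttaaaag
Rsad2: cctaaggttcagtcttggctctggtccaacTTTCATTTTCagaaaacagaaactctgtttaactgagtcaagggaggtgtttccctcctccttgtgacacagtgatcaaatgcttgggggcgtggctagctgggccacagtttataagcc
Bst2: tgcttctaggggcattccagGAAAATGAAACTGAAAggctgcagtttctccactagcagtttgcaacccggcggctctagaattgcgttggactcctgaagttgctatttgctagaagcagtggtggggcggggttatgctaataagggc
B2m: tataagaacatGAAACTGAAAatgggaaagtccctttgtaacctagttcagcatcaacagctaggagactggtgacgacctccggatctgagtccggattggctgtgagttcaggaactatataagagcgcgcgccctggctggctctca

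Isg15 carried 3 overlapping matches, Bst2 carried 2 that overlap, and Rsad2 and B2m carried 1 each, the Rsad2 match on the opposite strand. The matches of Isg15 start at −78, −72 and −66 from the annotated start, those of Bst2 at −130 and −124, that of Rsad2 at −120 and that of B2m at −139. The other 10 members with a match were Ddx58, Eif2ak2, Gbp2, Gbp3, Ifih1, Ifitm2, Ifitm3, Lgals9, Oas1a and Stat2.

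Both classes expressed interferon response genes at baseline, in a different order of abundance, as the plot of levels by class shows. Germ class cells were richest in Bst2, which encodes tetherin, a membrane protein that holds budding virus at the cell surface. Bst2 stood at 173 CPM under Chd4 siRNA and 149 CPM under control siRNA, and Tapbp, which encodes the peptide-loading chaperone tapasin, at 123 and 119 CPM. B2m, the light chain of class I molecules, followed at 99.7 and 86.4 CPM, then Ifitm2 at 77.2 and 78.3 CPM and the transcription factor gene Irf1 at 67.3 and 60.1 CPM. Feeder class cells were dominated by class I and Ifitm genes instead: B2m stood at 1147 and 1183 CPM, Ifitm2 at 444 and 399 CPM, and Ifitm3 at 367 and 462 CPM. Bst2, at 84.3 and 129 CPM, and Tapbp, at 107 and 103 CPM, were abundant in the feeder class too. Ifitm2 and Ifitm3 encode small membrane proteins that block viral entry. These UMI counts come from a 3′ tag method, and levels are not corrected for transcript length.

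**Figure D1:**
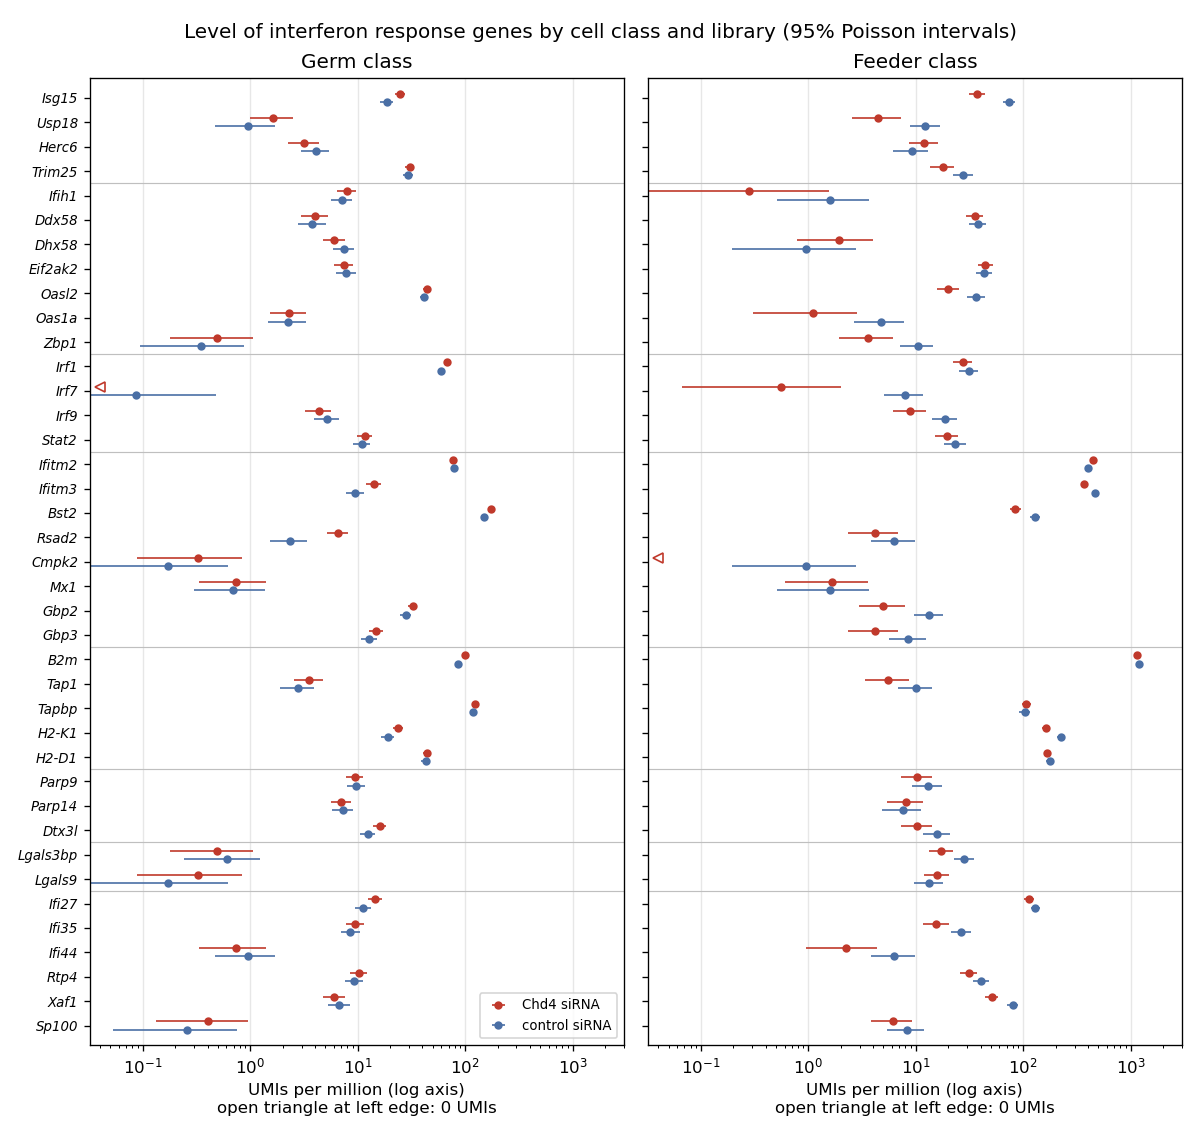
Level of each of the 39 members (rows, grouped by role) in CPM on a log axis, in the germ class (left) and the feeder class (right), with Chd4 siRNA in red above control siRNA in blue and 95% Poisson intervals. B2m reaches 1147 and 1183 CPM in the feeder class and 99.7 and 86.4 CPM in the germ class, whereas Bst2 leads the germ class at 173 and 149 CPM.

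Set against the feeder class of the same library, 3 members were at least 2-fold higher in the germ class in both libraries, where 31.4% of all genes were. These were Gbp2, a guanylate-binding GTPase, and the cytosolic RNA sensors Ifih1 (MDA5) and Dhx58 (LGP2). Ifih1 had 97 and 82 UMIs in the germ class and 1 and 5 UMIs in the feeder class. Dhx58 had 74 and 86 UMIs in the germ class and 7 and 3 in the feeder class. Another 13 members were at least 2-fold lower in the germ class in both libraries, where 18% of all genes were. Among them was Ddx58 (RIG-I), the third sensor of that family, with 49 and 44 UMIs in the germ class and 128 and 120 UMIs in the feeder class. Gbp2 had 399 and 324 UMIs in the germ class and 18 and 42 in the feeder class. The minimum of 50 UMIs per library was counted over both classes, and all 3 higher members passed it through their germ class UMIs. Ddx58 and Lgals3bp passed it through their feeder class UMIs. Lgals3bp had 6 and 7 UMIs in the germ class and 62 and 90 in the feeder class. Usp18, Oas1a, Zbp1, Irf7, Rsad2, Cmpk2, Mx1, Lgals9, Ifi44 and Sp100 did not reach the minimum in both libraries and were not compared. The remaining lower members were Herc6, Eif2ak2, Irf9, Ifitm2, Ifitm3, B2m, H2-K1, H2-D1, Lgals3bp, Ifi27, Rtp4 and Xaf1. Bst2, Irf1, Oasl2 and Gbp3 were 2-fold higher in the germ class under Chd4 siRNA alone, with ratios of 2.06, 2.45, 2.21 and 3.59, against 1.16, 1.93, 1.14 and 1.499 under control siRNA.

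Low germ class levels have to be read against the level of fibroblast markers in the same cells. The 14 fibroblast markers stood in the germ class at a median of 1.30% and 1.45% of their feeder class level. Lgals3bp, a secreted glycoprotein, stood at 2.85% and 2.13% of its feeder level, Lgals9 at 2.07% and 1.30%, and Ifitm3 at 3.83% and 2.03%. These 3 members were close to that background in the germ class, and their germ class level is not read as expression. B2m, at 8.69% and 7.31% of its feeder level, and H2-D1, at 26.1% and 24.2%, lay above the median marker. Single markers reached 27.97% and 34.2%. B2m and H2-D1 lay within that range, as did other members. Among these were H2-K1 (14.6% and 8.55%), Ifi27 (12.8% and 8.63%) and Xaf1 (11.9% and 8.43%). Irf7, the master factor of the late type I response, had 0 and 1 UMIs in the germ class, where 3 UMIs would be 0.245 and 0.258 CPM.

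In the germ class, 30 of the 39 members had at least 50 UMIs over both libraries. Their median log2 ratio was 0.11, against 0.05 for all 11262 genes with that minimum. Ratios above 1 were found for 22 of the 30 and for 61.1% of all genes. By the rule used here, a gene is called higher when it is at least 25% above control siRNA and lower when it is at least 20% below it. On this rule 6 members were higher, Isg15, Rsad2, Ifitm3, Tap1, Dtx3l and Ifi27, against 8.74% of all genes. Herc6 was the 1 member called lower, against 7.12% of all genes. With TMM scaling 3 of the 30 members were higher and 2 lower, against 6.58% and 9.03% of all genes. With DESeq2 size factors 5 were higher and 2 lower, against 7.08% and 8.63%. Of 11 members with 50 to under 200 UMIs 2 were higher, against 19.8% of all genes, and of 19 with at least 200 UMIs 4 were, against 4.7%. Of those 11 members 5 had ratios above 1, against 54.0% of all genes, with medians of −0.04 and 0.03. Of the 19 members 17 had ratios above 1, against 63.6% of all genes, with medians of 0.17 and 0.05.

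A single cell held much of the UMIs of several called members. It is 1 of the 760 germ class cells under Chd4 siRNA and holds 25493 UMIs. It had 2 UMIs of Dazl and Ddx4 and 0 of Col1a1 and Fn1, which put it in the germ class, but 45 UMIs of other fibroblast markers against 4 of other germ cell markers. It held 43 of the 303 Isg15 UMIs of that class, 34 of the 80 Rsad2 UMIs, 59 of the 172 Ifitm3 UMIs and 53 of the 1222 B2m UMIs. It also held 5 of the 6 Zbp1 UMIs and 3 of the 4 Cmpk2 UMIs. A core of 24 members was also summed per cell, leaving out the class I, Ifitm, Gbp and lectin genes and Trim25, Irf1, Ifi35 and Sp100. Of these 24, 16 were seen in that cell with 146 UMIs, or 5727 CPM. The median germ class cell held 297 CPM of core members under Chd4 siRNA and 274 CPM under control siRNA. Which type this cell is was not tested.

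Without the 2 and 3 germ class cells that hold more fibroblast than germ cell markers, 3 members were called higher (Rsad2, Dtx3l and Ifi27, against 8.36% of all genes) and 2 lower (Herc6 and Xaf1, against 7.26%). This exclusion was chosen after the data were seen. The median log2 ratio of the 30 members was then 0.07, against 0.05 for all genes, and the share called higher was close to the background. In the plot of ratios with and without such cells, Rsad2, Ifitm3, Xaf1 and Isg15 lie farthest from the line of equality.

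**Figure D2:**
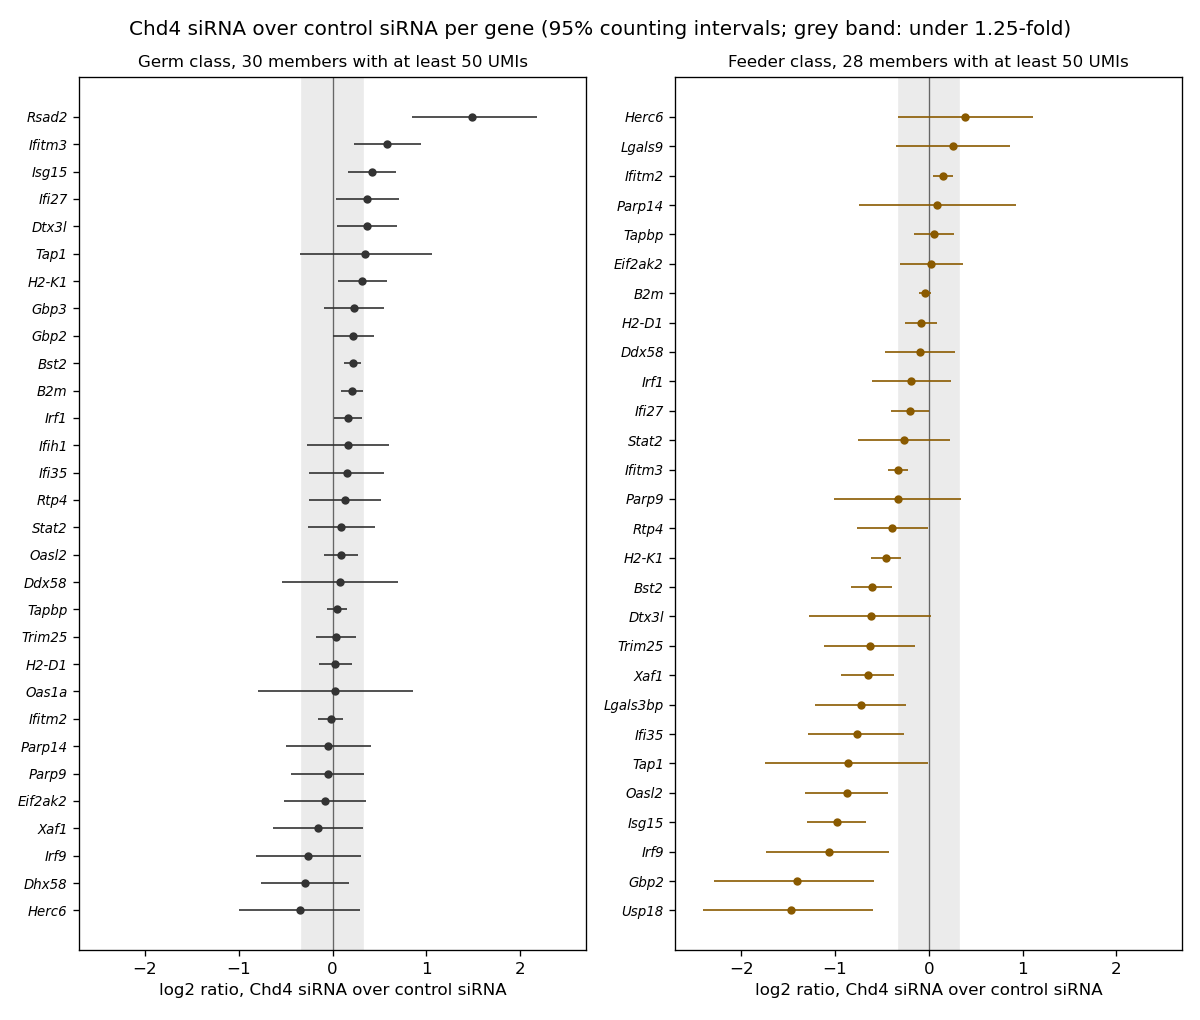
log2 ratio of Chd4 siRNA over control siRNA for members with at least 50 UMIs over both libraries, in the germ class (30 members, left) and the feeder class (28 members, right), with 95% counting intervals and a grey band for ratios not called. The germ class members have a median of 0.11, and 22 of the 28 feeder class members lie left of 0 (median −0.36).

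The feeder class looked different. There 28 members had at least 50 UMIs, and 16 of them were lower under Chd4 siRNA, against 17.9% of all genes. Herc6 was the 1 member called higher, against 13.2% of all genes. The median was −0.36, and −0.02 over all 8346 genes with that minimum, and 22 of the 28 lay below 0, against 52% of all genes. The count was above background in both depth ranges: 10 of 15 members with 50 to under 200 UMIs were lower, against 24.5% of all genes, and 6 of 13 with at least 200 UMIs, against 11.5%. Both classes came from the same libraries, and no test of the difference between classes was possible. Of 25 members measured in both classes, 17 lay above 0 in the germ class and below 0 in the feeder class, and 4 lay the other way round. Of all genes measured in both classes, 28.8% lay above 0 in the germ class and below 0 in the feeder class. The count of members was 15 of 25 with the germ class ratio taken without the cells with more fibroblast markers.

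The members were also read by transcript length. Genes whose longest annotated coding transcript is under 1000 bases had an all-gene median of −0.01 in the germ class and −0.04 in the feeder class. The 6 measured members of that length, such as Isg15, Bst2 and B2m, had medians of 0.29 and −0.26 in the same classes. These medians use all cells, and the germ class one includes Ifitm3, whose level there is not read as expression. Without the cells with more fibroblast markers, the germ class ratios were 0.22 for Isg15, 0.20 for Bst2 and 0.12 for B2m. Those of Ifi27, Ifitm2 and Ifitm3 were then 0.38, −0.07 and 0.03. From 2000 to 4000 bases, the members had medians of 0.08 over 13 genes in the germ class and −0.65 over 11 genes in the feeder class, against 0.06 and −0.02 for all genes. From 4000 bases up the members did not stand apart in the germ class, with a median of 0.03 over 7 genes against 0.04 for all genes, and in the feeder class their median was −0.12 over 6 genes, 3 of them below 0.

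The ubiquitin-like system comes first by role. Isg15 encodes the ubiquitin-like modifier that is attached to proteins in the response. In the germ class Isg15 stood at 24.7 CPM under Chd4 siRNA and 18.5 CPM under control siRNA, with a log2 ratio of 0.42 (0.16 to 0.68). Without the cells with more fibroblast markers it stood at 21.3 and 18.3 CPM, 0.22 (−0.05 to 0.49), within counting error of 0. In the feeder class Isg15 stood at 37.1 CPM under Chd4 siRNA and 73.4 CPM under control siRNA, −0.98 (−1.30 to −0.67). Isg15 was thus the feeder class member with the widest gap between its interval and 0 among those with 50 UMIs. Usp18, the protease that removes ISG15 and damps receptor signalling, had 16 and 39 UMIs in the feeder class, or 4.44 and 12.3 CPM, −1.47 (−2.41 to −0.60). In the germ class its 20 and 11 UMIs were too few to compare. Herc6, an ISG15 ligase in mice, went against the others: it had 3.18 and 4.05 CPM in the germ class, −0.35 (−0.998 to 0.296), and 11.9 and 9.14 CPM in the feeder class, 0.38 (−0.33 to 1.12). Both Herc6 intervals include 0. Trim25, a ubiquitin ligase of the RIG-I pathway, stood at 30.4 and 29.6 CPM in the germ class, 0.03, and at 17.7 and 27.4 CPM in the feeder class, −0.63 (−1.12 to −0.15).

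The nucleic acid sensors were flat in the germ class, with 6 of 7 measured and none called. Their log2 ratios ran from −0.29 for Dhx58 to 0.16 for Ifih1. Oasl2, a member of the oligoadenylate synthetase-like family and the most abundant germ class sensor, stood at 44.1 CPM under Chd4 siRNA and 41.5 CPM under control siRNA, 0.09 (−0.09 to 0.27). In the feeder class Oasl2 stood at 19.96 and 36.5 CPM, −0.87 (−1.32 to −0.44). Ddx58 and Eif2ak2 (PKR, which halts translation on double-stranded RNA) did not share that difference there. Ddx58 stood at 35.5 and 37.8 CPM, −0.09 (−0.46 to 0.28), and Eif2ak2 at 44.4 and 43.5 CPM, 0.03 (−0.31 to 0.37). Zbp1, a sensor of Z-form nucleic acid that can trigger necroptosis, had 13 and 33 UMIs in the feeder class, and Oas1a had 4 and 15. Both were under the minimum of 50 UMIs. The Oas1a counts are uncertain in any case, since 51.2% of the 60-base stretches near its 3′ end also occur in Oas1g.

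Among the transcription factors, Irf1, which acts in both interferon branches, stood at 67.3 CPM under Chd4 siRNA and 60.1 CPM under control siRNA in the germ class, 0.17 (0.02 to 0.31). In the feeder class Irf1 had 99 UMIs in each library, or 27.4 and 31.2 CPM, −0.18 (−0.60 to 0.23). Irf9, the DNA-binding part of the type I complex, had 53 and 60 UMIs in the germ class, −0.26 (−0.82 to 0.30). In feeder class cells Irf9 had 32 and 59 UMIs, or 8.87 and 18.6 CPM, −1.07 (−1.74 to −0.42). Its partner Stat2 stood at 11.6 and 10.9 CPM in the germ class, 0.09, and at 19.4 and 23.3 CPM in the feeder class, −0.26 (−0.76 to 0.23). Irf7 had 2 UMIs under Chd4 siRNA and 25 UMIs under control siRNA in the feeder class, a ratio of 0.070 (0.008 to 0.282). Of those 25 UMIs, 15 sat in 2 cells, and 2 and 9 UMIs were left without the 3 cells of each library richest in core members. Irf9 overlaps Rnf31 on the same strand in the annotation.

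The antiviral effectors held the highest single ratio of the germ class and the most abundant member. Bst2, spread over 640 of 760 and 591 of 728 germ class cells, had 2122 and 1732 UMIs and a log2 ratio of 0.21 (0.12 to 0.31). Its difference was beyond counting error but under the rule for a call, and it was 0.20 (0.11 to 0.30) without the cells with more fibroblast markers. Within the feeder class Bst2 stood at 84.3 CPM under Chd4 siRNA and 129 CPM under control siRNA, −0.61 (−0.83 to −0.39). Rsad2 encodes viperin, which makes a chain-terminating nucleotide. It had 80 UMIs under Chd4 siRNA and 27 UMIs under control siRNA in the germ class, 1.49 (0.84 to 2.18). Without the cells with more fibroblast markers Rsad2 had 46 and 27 UMIs, 0.69 (−0.02 to 1.44). Without the 3 cells of each library richest in core members it had 34 and 26 UMIs, 0.31 (−0.47 to 1.11), and was no longer called. A second Chd4 siRNA germ class cell, with 34 other germ cell marker UMIs and 4 fibroblast marker UMIs, held 9 of the 46. Cmpk2, a mitochondrial nucleotide kinase that neighbours Rsad2, and Mx1, a dynamin-like GTPase, had under 10 UMIs in each class and library.

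Ifitm3 in the germ class stood at 14.04 CPM under Chd4 siRNA and 9.39 CPM under control siRNA, 0.58 (0.23 to 0.94). Without the cells with more fibroblast markers it stood at 8.03 and 7.86 CPM, 0.03 (−0.40 to 0.46), so it was not called without them. Among feeder class cells Ifitm3 stood at 367 and 462 CPM, −0.33 (−0.44 to −0.22). Ifitm2 did not share that difference: it stood at 444 and 399 CPM in the feeder class, 0.15 (0.05 to 0.26), and at 77.2 and 78.3 CPM in the germ class, −0.02 (−0.15 to 0.11). Ifitm2 counts are uncertain, since 38.3% of the 60-base stretches near its 3′ end occur in other loci, and 7.71% of those of Ifitm3 do. Gbp2 stood at 32.6 and 27.9 CPM in the germ class, 0.22 (0.01 to 0.44), and had 18 and 42 UMIs in the feeder class, −1.41 (−2.29 to −0.58). Gbp3, a related GTPase gene, was at 0.23 (−0.09 to 0.55) in the germ class, with 15 and 27 UMIs in the feeder class, too few to compare.

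The class I genes differed little in either class, apart from H2-K1 and Tap1. H2-K1, a classical heavy chain, stood at 23.8 CPM under Chd4 siRNA and 19.0 CPM under control siRNA in the germ class, 0.32 (0.06 to 0.58). In feeder class cells it stood at 163 and 223 CPM, −0.45 (−0.61 to −0.29). H2-D1, the other classical heavy chain, stood at 43.8 and 42.8 CPM in the germ class, 0.03 (−0.15 to 0.21), and at 167 and 177 CPM in the feeder class, −0.08 (−0.25 to 0.09). The intervals of the 2 heavy chains in the feeder class do not overlap. B2m was at 0.21 (0.09 to 0.33) in the germ class, 0.12 without the cells with more fibroblast markers, and at −0.04 (−0.11 to 0.02) in the feeder class. Tapbp was at 0.05 (−0.05 to 0.16) in the germ class and 0.06 (−0.16 to 0.27) in the feeder class. Tap1, the peptide transporter, had 43 and 32 UMIs in the germ class, 0.35 (−0.35 to 1.06), and 20 and 32 in the feeder class, −0.86 (−1.75 to −0.01).

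Dtx3l, a ubiquitin ligase that pairs with Parp9, stood at 16.0 CPM under Chd4 siRNA and 12.4 CPM under control siRNA in the germ class, 0.37 (0.05 to 0.69). Its UMIs were found in 169 and 117 cells, and the ratio was 0.36 (0.04 to 0.68) without the cells with more fibroblast markers. Parp9, which lies head to head with Dtx3l on chromosome 16 and overlaps it on the other strand, stood at 9.39 and 9.74 CPM, −0.05 (−0.44 to 0.33). The intervals of the 2 partners overlap. Within the feeder class Dtx3l stood at 10.3 and 15.8 CPM, −0.62 (−1.27 to 0.02), and Parp9 at 10.3 and 12.9 CPM, −0.33 (−1.01 to 0.34). Parp14, another ADP-ribosyltransferase, was at −0.04 and 0.09.

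Of the remaining induced genes, Ifi27 stood at 14.4 CPM under Chd4 siRNA and 11.2 CPM under control siRNA in the germ class, 0.37 (0.03 to 0.71), and at 113 and 130 CPM in the feeder class, −0.20 (−0.40 to 0.00). Xaf1, a pro-apoptotic factor that antagonises XIAP, had 74 and 78 UMIs in the germ class, −0.15 (−0.63 to 0.32). Without the cells with more fibroblast markers Xaf1 had 61 and 77 UMIs, −0.41 (−0.92 to 0.09). Among feeder class cells Xaf1 stood at 50.7 and 79.7 CPM, −0.65 (−0.93 to −0.37). Rtp4, Ifi35 and Lgals3bp were also lower in the feeder class, at −0.39, −0.77 and −0.72, with intervals under 0. In the germ class Rtp4 was at 0.13 and Ifi35 at 0.15, with intervals that include 0. Ifi44 had 8 and 20 UMIs and Sp100 22 and 26 UMIs in the feeder class, and both had under 12 in each germ class library.

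How the UMIs are spread over cells bears on these sums. Among germ class cells, many members fell on nearly as many cells as their UMIs would if drawn by depth, as the plot of carrying cells shows. Trim25 was seen in 288 cells under Chd4 siRNA and 255 under control siRNA, where depth alone gives 287 and 268, and Stat2 in 123 and 112, where it gives 128 and 115. Others fell well short of that in both libraries, among them Oasl2, Gbp2, H2-D1, Ifi27, Rtp4 and Xaf1. Oasl2 was seen in 291 and 274 cells where depth gives 375 and 342. Rtp4 was seen in 82 and 66 cells where it gives 114 and 99.5. Isg15 was also concentrated, in 161 and 140 cells where depth gives 245 and 183. Rsad2 was seen in 33 and 20 cells where depth gives 75.4 and 26.4, and 2 and 7 cells held 50% of its UMIs. At an equal depth of 9000 UMIs per cell, Bst2 was seen in 70.4% (66.9 to 73.8) of 697 cells under Chd4 siRNA and 66.4% (62.6 to 70.0) of 666 cells under control siRNA. Isg15 was seen in 13.5% (11.04 to 16.2) and 12.5% (10.1 to 15.2). The intervals of the Isg15 shares overlap, as do those of Bst2. Without thinning the Isg15 shares were 21.2% and 19.2%. Feeder class cells thinned alike carried Isg15 in 21 of 84 cells and 19 of 75 cells, and 47.2% and 55.7% without thinning.

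**Figure D3:**
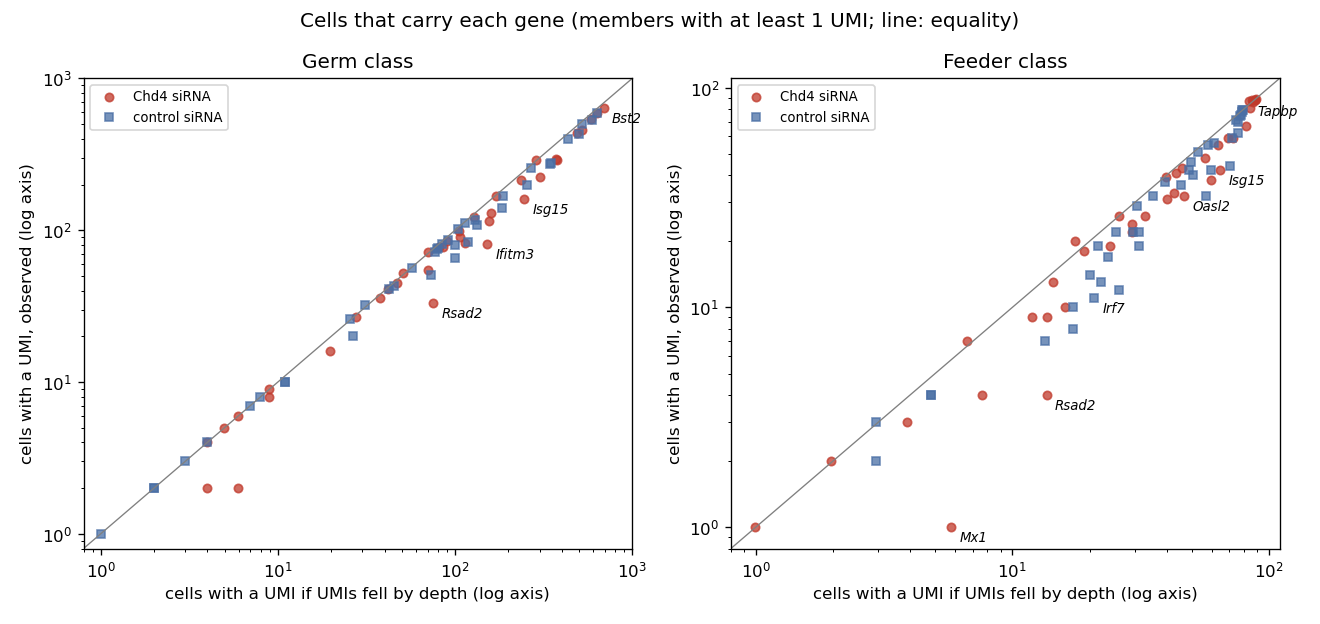
Number of cells with at least 1 UMI of each member (y axis) against the number that would carry one if the same UMIs fell on cells in proportion to depth (x axis), both log axes, in the germ class (left) and the feeder class (right), with Chd4 siRNA as red circles and control siRNA as blue squares. Points under the line are genes held by fewer cells than depth gives, such as Rsad2 in the germ class under Chd4 siRNA (33 cells, where depth gives 75.4).

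The feeder class has far fewer cells, and single cells weigh more in its sums. Isg15 was found in 42 of 89 cells under Chd4 siRNA and 44 of 79 under control siRNA, and 6 and 4 cells held 50% of its UMIs. Under control siRNA, 2 cells held 53 and 44 of the 233 Isg15 UMIs. All 6 Mx1 UMIs of the Chd4 siRNA feeder class sat in 1 cell, which also held 6 of the 15 Rsad2 UMIs, 12 of the 72 Oasl2 UMIs, 39 of the 72 Cxcl10 UMIs and 43 of the 130 Ccl5 UMIs. Over the 24 core members, the 3 richest cells held 14.7% of the UMIs under Chd4 siRNA and 24.0% under control siRNA. Cells with at least 1000 CPM of core members numbered 11 of 89 (12.4%) and 16 of 79 (20.3%). The median feeder cell held 400 and 464 CPM of core members, while the class sums were 505 and 710 CPM, a log2 ratio of −0.49. In the plot of core members per cell, the highest feeder cell stands at 2209 CPM under Chd4 siRNA and 3854 CPM under control siRNA.

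**Figure D4:**
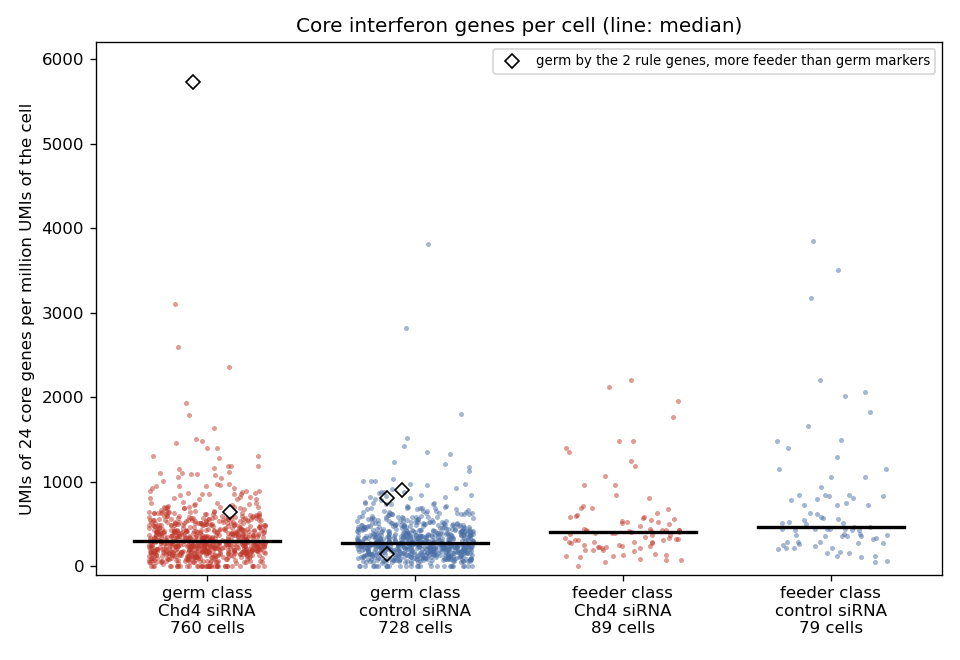
UMIs of the 24 core members in CPM of the cell (y axis, linear) for each cell of the germ and feeder classes, Chd4 siRNA left of control siRNA in each class, with the median as a black line and cells with more fibroblast than germ cell markers as open diamonds. The 1 diamond at 5727 CPM is the Chd4 siRNA cell that holds 34 of 80 Rsad2 UMIs, and the highest feeder cell reaches 2209 CPM under Chd4 siRNA and 3854 CPM under control siRNA.

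Without the 3 cells of each library richest in core members, an exclusion chosen after the data were seen, the core sum in the feeder class was 453 CPM under Chd4 siRNA and 573 CPM under control siRNA, a log2 ratio of −0.34. Then 13 of 24 measured members were lower, against 18.4% of all genes, and 2 were higher, Herc6 and Lgals9, against 12.8%. Isg15 remained lower at 25.6 and 41.8 CPM, −0.71 (−1.12 to −0.30). Bst2 was at −0.36 (−0.60 to −0.12), Irf9 at −1.01 (−1.73 to −0.33) and Xaf1 at −0.36 (−0.68 to −0.04). Usp18 and Gbp2 were left with 16 and 23 and with 16 and 27 UMIs, under the minimum. Ifitm3 was left at 354 and 382 CPM, −0.11 (−0.23 to 0.01), so its feeder class call did not stand without these cells.

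**Figure D5:**
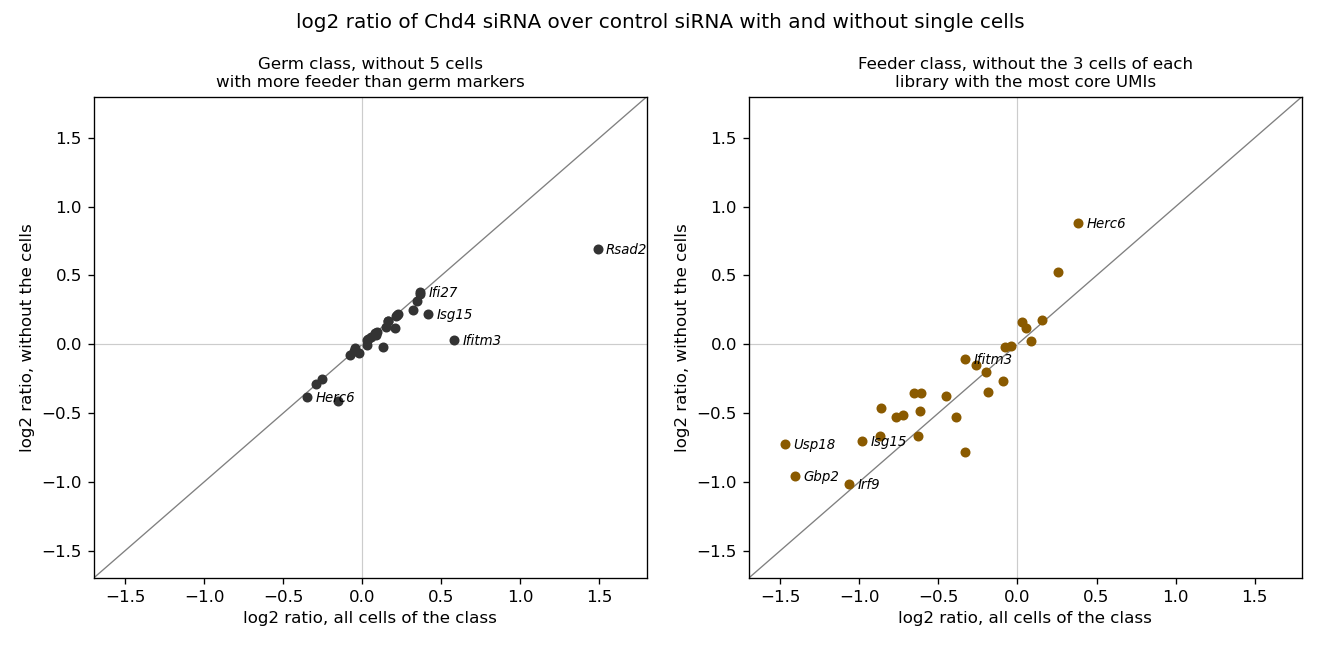
log2 ratio of Chd4 siRNA over control siRNA with all cells of the class (x axis) and without single cells (y axis): the 2 and 3 germ class cells with more fibroblast than germ cell markers (left), and the 3 feeder class cells of each library with the most core UMIs (right). In the germ class Ifitm3 moves to 0.03 from 0.58 and Rsad2 to 0.69 from 1.49, and in the feeder class Isg15 moves to −0.71 from −0.98.

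Cells were also counted by how many core members they carried. The share that unrelated detection would give was not computed, so the shares below do not show that members go together. At 9000 UMIs per cell, at least 3 core members were found in 31.3% (27.8 to 34.9) of germ class cells under Chd4 siRNA and 27.2% (23.8 to 30.7) under control siRNA. Within the feeder class they were found in 51.2% (40.0 to 62.3) of 84 cells and 70.7% (59.0 to 80.6) of 75 cells. The germ class share was higher and the feeder class share lower under Chd4 siRNA, each with intervals that overlap. Without thinning the germ class shares were 56.1% and 49.9%, and the feeder class shares 89.9% and 93.7%. In the germ class 29 cells (3.82%) held at least 1000 CPM of core members under Chd4 siRNA and 15 (2.06%) under control siRNA. These cells were counted without thinning, and a shallow cell reaches that level with few core UMIs. The 29 include the cell at 5727 CPM.

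Other genes of the interferon pathway were read from lists chosen with earlier results of these data known. No interferon gene reached 50 UMIs: 17 of 21 ligand genes were at 0 in the germ class and 18 in the feeder class of both libraries. Of the receptors and signalling genes, 11 were measured in the germ class, 2 higher and none lower. For this and each list below, the shares of all genes are 8.74% higher and 7.12% lower in the germ class, and 13.2% higher and 17.9% lower in the feeder class. The 2 higher signalling genes of the germ class were Ifngr2 and Socs3, a feedback inhibitor of JAK and STAT signalling. Ifngr2, the signalling chain of the interferon gamma receptor, stood at 27.8 CPM under Chd4 siRNA and 21.8 CPM under control siRNA, 0.35 (0.11 to 0.59). Socs3 stood at 49.6 and 36.8 CPM in the germ class, 0.43 (0.25 to 0.61), and had 34 and 52 UMIs in the feeder class, −0.80 (−1.47 to −0.15). Ifngr2 was higher in the feeder class too, at 71.2 and 52.0 CPM, 0.45 (0.17 to 0.75). Jak1 was at −0.10 (−0.17 to −0.02) in the germ class and −0.34 (−0.58 to −0.10) in the feeder class.

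Among 13 measured nucleic acid sensing genes, 1 was higher and 2 were lower in the germ class. Ticam1, the adaptor of Toll-like receptor 3, had 45 UMIs under Chd4 siRNA and 23 UMIs under control siRNA, 0.89 (0.13 to 1.68). Myd88, the adaptor of most other Toll-like receptors, had 71 and 100 UMIs, −0.57 (−1.03 to −0.12), and Tlr3 had 20 and 32, −0.76 (−1.64 to 0.09). Among feeder class cells Mb21d1, which encodes the DNA sensor cGAS, had 35 and 54 UMIs, −0.81 (−1.47 to −0.17), and Prkra, an activator of PKR, had 125 and 82 UMIs, 0.42 (0.01 to 0.84). Among 26 other measured interferon induced genes of the germ class, 7 were higher and none lower, with a median of 0.10. Shisa5 stood at 23.02 and 15.7 CPM, 0.55 (0.28 to 0.83), and the GTPase gene Ifi47 at 9.22 and 5.77 CPM, 0.68 (0.23 to 1.13). Without the cells with more fibroblast markers these ratios were 0.53 and 0.68. Irgm2, a GTPase gene of the same family as Ifi47, had 39 and 19 UMIs, 0.96 (0.13 to 1.83). In feeder class cells 1 of 20 of these genes was higher, Aim2, and 9 were lower, with a median of −0.22, led by Tor3a at 39.6 and 61.1 CPM, −0.62 (−0.95 to −0.31). Irgm1 was at −0.59 (−1.03 to −0.16) there and Ifi204 at −0.60 (−1.08 to −0.12).

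Among the antigen presentation genes outside the members, single genes differed in 1 or both classes. H2-T23, a nonclassical class I gene, stood at 18.7 CPM under Chd4 siRNA and 13.8 CPM under control siRNA in the germ class, 0.44 (0.14 to 0.74). Within the feeder class it stood at 10.53 and 21.4 CPM, −1.02 (−1.64 to −0.43), but 24 of its 68 control siRNA UMIs there sat in 1 cell. Psmb10, an immunoproteasome subunit, stood at 182 and 188 CPM in the germ class, −0.05 (−0.13 to 0.04), and at 30.8 and 56.7 CPM in the feeder class, −0.88 (−1.24 to −0.53). H2-T22, another nonclassical gene, stood at 21.2 and 16.5 CPM in the germ class, 0.37 (0.09 to 0.64). Calr, a chaperone of class I folding, was higher in the feeder class, at 412.5 and 324.8 CPM, 0.34 (0.23 to 0.46). The list as a whole was nearly flat, with 2 of 15 higher and none lower in the germ class (median 0.02) and 1 higher and 4 lower of 11 in the feeder class (median −0.08).

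The interferon induced cytokines were called higher in the germ class in 4 of 4 measured genes, but their UMIs sat in the cell described above. Cxcl10, a chemokine that draws T cells, had 147 UMIs under Chd4 siRNA and 20 UMIs under control siRNA, 2.80 (2.12 to 3.55), and 127 of the 147 were in that cell. Ccl5 had 132 and 6 UMIs, with 125 of the 132 in it. Ccl2 had 251 and 78 UMIs, with 171 in it, and Ccl7 had 88 and 42, with 53 in it. Without the cells with more fibroblast markers, Cxcl10 had 20 and 20 UMIs, −0.08 (−1.05 to 0.89), Ccl2 79 and 75, and Ccl7 35 and 41. The germ class sums of all 4 then lay within counting error of each other. Among feeder class cells Ccl2 stood at 795 and 682 CPM, 0.22 (0.14 to 0.30), and Ccl5 at 36.0 and 22.7 CPM, 0.67 (0.24 to 1.10), with 70 of its 130 UMIs in 1 cell. Over all pathway genes outside the members, 16 of 69 measured genes were higher and 2 lower in the germ class, and 7 of 58 were higher and 18 lower in the feeder class. The 7 higher in the feeder class and the 2 lower in the germ class were no more than the shares of all genes give. Without those cells, 13 of the 69 were higher and 3 lower in the germ class.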

How the data were processed

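The authors deposited raw UMI counts per gene and cell for 2 libraries, whole numbers per the file headers. Chromium v2 chemistry is named in the labels' protocols, and the submitters' processing notes list Cell Ranger 2.1.0, Seurat and mm10. The gene list names 26893 of 27998 rows; the other 1105 rows (12.6% of UMIs under Chd4 siRNA, 12.1% under control siRNA) stayed out of totals. Each matrix ends inside its last cell, which was left out, leaving 860 and 816 cells. Of these, 2 and 0 with under 1000 UMIs were removed. Scrublet (scanpy 1.11.5) marked 5 and 18 doublets, which were kept.

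Counts were summed per class and divided by the class total to give CPM. Ratios have exact conditional (Clopper-Pearson) intervals, sums Poisson intervals. Intervals and floors cover counting error only; no p-value was computed. Cells shallower than 9000 UMIs (63 and 62 germ, 5 and 4 feeder) were left out of thinned shares. TMM (edgeR 4.0.16) and DESeq2 1.42.0 factors served as alternative scalings in R 4.3.3. Steps were tested on simulated counts. GENCODE gave gene positions and transcript lengths on mm10, and RefSeq the promoters. Alternatives were other scalings, UMI minimums, class splits, cell filters and thinning, plus cell exclusions chosen after the data were seen.

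The members, lists and settings were chosen with earlier results of these data known. Members described in full were the 12 with most UMIs per class and the 6 highest and 6 lowest by the interval bound nearest 0; others are named to account for every member. Pathway genes named were taken from the first 4 per list and class by that bound, not all of which are given; Tlr3, Psmb10 in the germ class, Gbp3 and the genes of single cells were named after their values were seen.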

Additional observations from a re-analysis of the deposited data

Results flagged for a closer look

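Isg15 lay in opposite directions in the 2 cell classes of the same libraries, at a log2 ratio of 0.42 in the germ class and −0.98 in the feeder class. Bst2 (0.21 and −0.61), Gbp2 (0.22 and −1.41), H2-K1 (0.32 and −0.45) and Ifitm3 (0.58 and −0.33) did the same, each with both counting intervals clear of 0. The germ class level of Ifitm3 is close to the level of fibroblast markers in that class and is not read as expression, and its feeder class ratio was −0.11 (−0.23 to 0.01) without the 3 cells of each library richest in core members. With 1 library per group the difference between classes was not tested for any of the 5. Without the germ class cells with more fibroblast than germ cell markers the germ class value stays clear of 0 for Bst2 alone (0.20, 0.11 to 0.30), and is 0.22 for Isg15, 0.21 for Gbp2, 0.25 for H2-K1 and 0.03 for Ifitm3.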

How the results depend on the processing

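With 1 library per group, no replicate spread exists and each value describes these libraries alone. No paired analysis was possible because each group is 1 library and no test was made. Depth limits the feeder class most, where 28 of 39 members reached 50 UMIs.

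In the germ class 6 members were higher, and 3 were under TMM scaling, under the split by wider marker lists, without the 3 cells of each library richest in core members and without the cells with more fibroblast markers, while 11 were with no minimum. The shares of all genes called higher were 8.74% with all cells and 6.58%, 8.39%, 8.51%, 8.36% and 16.6% under these settings in turn. The last 2 exclusions of cells were chosen after the data were seen. The 1 lower member became 2 under those settings, DESeq2 size factors, the mean of per-cell CPM, a minimum of 20 UMIs and the strict split, and 0 at a minimum of 200 UMIs. From 7.24% to 15.5% of all genes were lower under the settings with 2, and 3.90% at 200 UMIs. In the feeder class the 1 higher member became 2 under the mean of per-cell CPM, no minimum, the wider lists, thinning and without the 3 richest cells, and 0 at a minimum of 200 UMIs. The shares of all genes higher there were 21.1%, 18.8%, 13.4%, 19.4%, 12.8% and 10.0% in turn. The 16 lower members became 6 of 13 measured at a minimum of 200 UMIs and 6 of 13 when thinned to 9000 UMIs, both with fewer members measured, against 11.5% and 16.9% of all genes. They ranged from 12 to 24 under the other settings, where 14.7% to 25.1% of all genes were lower. The core sum of the feeder class was −0.34 without the 3 richest cells and −0.49 with all.

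Ifitm3 in the germ class, at 0.58, was −0.035 under the strict split and −0.0096 without the 3 richest cells. Signs were compared only for called members described in full. In the germ class the sign of Isg15, Ifitm3, Rsad2 and Dtx3l held in 42 of 44 comparisons of a member with an alternative, Ifitm3 being both exceptions. The called members Tap1, Ifi27 and Herc6 were not in that count. In the feeder class the sign of Isg15, Usp18, Oasl2, Irf9, Ifitm3, Bst2, Gbp2, H2-K1 and Xaf1 held in 90 of 90. Herc6, Trim25, Tap1, Parp9, Dtx3l, Lgals3bp, Ifi35 and Rtp4, also called there, were not counted. TMM moved the median of all genes by −0.05 in the germ class and 0.03 in the feeder class.

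Members found in at least 10% of germ class cells of both libraries numbered 11 when thinned and 20 without thinning. Cells with several core members depend on the minimum: in the germ class, under Chd4 siRNA and control siRNA, 60.1% and 57.2% held at least 2, 6.03% and 5.11% at least 5, and 56.1% and 49.9% at least 3 without thinning. In the feeder class these shares were 79.8% and 86.7%, 22.6% and 36.0%, and 89.9% and 93.7%. Of the pathway genes outside the members, 16 higher in the germ class became 6 at a minimum of 200 UMIs, where the share of all genes fell from 8.74% to 4.70%. The 2 lower there became 6 at 20 UMIs and 0 at 200 UMIs, against 10.1% and 3.90% of all genes. The 18 lower in the feeder class became 29 and 3, against 21.3% and 11.5% of all genes. The number of genes measured also changes with the minimum. Other causes of these shifts were not tested.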

Other observations

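The 9 unassigned cells of each library were tied between Dazl with Ddx4 and Col1a1 with Fn1, at a median of 0 UMIs of each pair. By the other markers, 7 of the 9 in each library held more fibroblast than germ cell markers. The unassigned cells held core members at 504 CPM (343 to 716) under Chd4 siRNA and 1362 CPM (1047 to 1743) under control siRNA, from 31 and 63 UMIs. Their median depth was 5447 and 4763 UMIs. The control siRNA level lies above that of both named classes of its library, 320 CPM in the germ class and 710 CPM in the feeder class.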
